A study of Mus musculus with 6 samples.

Results

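The regions described here are the places bound by the nuclear receptor ESRRB around Klf2, Klf4 and Klf5 in E14 mouse embryonic stem cells, as called by ChIP-seq, that is, by sequencing the DNA that an antibody brings down. Cells were grown in N2B27 medium with 2iL, or were collected 48 h and 96 h after 2iL had been withdrawn and replaced with N2B27 alone. 2iL combines CHIR99021 at 3 µM, which blocks the kinase GSK3, PD0325901 at 1 µM, which blocks MEK, and LIF, a cytokine. Chromatin was fixed with 1% formaldehyde, the antibody was a mouse monoclonal against ESRRB, and libraries were made from 10 ng of DNA. There was 1 ESRRB library for each condition, so the values below describe 3 libraries of 1 cell line and no test between conditions was possible. A region is a unique interval of a deposited peak list, and it belongs to a Klf gene when a summit (the position of highest signal) lies within 100 kb of the mm10 span of that gene. This rule gave 17 of the 13767 regions in 2iL, 12 of the 10970 regions at 48 h and 9 of the 7018 regions at 96 h, or 38 of 31755 in all. No region lay inside any of the 3 genes. Peak lists hold no expression, so the cell type could not be checked against markers, and the regions are called by their distance and not as proven enhancers.

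Krüppel-like factors are transcription factors that bind GC-rich sequence through zinc fingers at their carboxy-terminal end. KLF2, KLF4 and KLF5 act with overlapping roles in the naive pluripotency network of mouse embryonic stem cells, where LIF signalling through STAT3 is known to raise Klf4 and Klf5. ESRRB is a member of the same network, and estrogen-related receptors bind as monomers to a core element extended at its 5′ side. Enhancers far from these genes are known to take part in their control.

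The promoters of Klf2 and Klf4 are shown because no ESRRB region of any library touched them. The 250 bases before each annotated start are from RefSeq, build GRCm38.p6, at chr8:72318812-72319061 on the plus strand for Klf2 and at chr4:55532476-55532725 on the minus strand for Klf4. Capitals mark the letters GGGCGGG or their reverse complement, the GC box that KLF proteins are known to bind.
Klf2: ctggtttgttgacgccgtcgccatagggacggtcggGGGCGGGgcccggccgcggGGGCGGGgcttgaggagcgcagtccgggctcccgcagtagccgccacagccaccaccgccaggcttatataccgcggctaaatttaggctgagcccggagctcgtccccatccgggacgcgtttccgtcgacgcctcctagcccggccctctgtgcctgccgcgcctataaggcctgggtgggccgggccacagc
Klf4: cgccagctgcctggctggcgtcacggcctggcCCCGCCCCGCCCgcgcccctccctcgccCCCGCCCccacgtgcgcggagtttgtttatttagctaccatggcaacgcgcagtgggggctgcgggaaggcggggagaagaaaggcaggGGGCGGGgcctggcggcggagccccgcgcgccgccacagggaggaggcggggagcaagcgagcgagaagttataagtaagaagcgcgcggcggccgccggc

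The Klf2 stretch held 2 GC boxes and the Klf4 stretch 4, of which 2 overlap and appear as 1 run of capitals. In the same 250 bases, 23.4% of the 32851 promoters in the table held at least 1. The GC box was added to the search after the sequences had been seen. G and C made up 71.2% of the Klf2 stretch and 74.0% of the Klf4 stretch, against a median of 52.4% over all promoters. Neither stretch held the ESRRB element TCAAGGTCA or its inner part AAGGTCA on either strand. Every full element also holds the inner part, which was present in 4.08% of promoters in this window, and the full element in 0.387%. Among promoters that held an ESRRB summit within the 300 bases of the table, the inner part was present in 18.1% of 684 in 2iL, 25.7% of 374 at 48 h and 22.7% of 321 at 96 h, against 4.72% of all promoters. The table had 9 promoters within the windows of Klf2 and Klf4 and none within that of Klf5. No region of any library overlapped any of the 9. Those of Klf4 and Gm12506 overlap each other, as do those of Eps15l1 and Gm46043. Promoters with an ESRRB summit were few in the whole table, at 684, 374 and 321 of 32851 in order of time. The share of all promoters that a region overlapped is not given. The lack of overlap in these 9 has no like background and is not read as a particular trait. In those 9, none of AAGGTCA, CCACACCC (a KLF box), ATGCAAAT (the octamer of OCT factors) or CTTTGAT (a TCF box) was found on either strand, and TTCNNNGAA (a STAT box) was found in the promoter of the long non-coding RNA gene Gm51536. Over all promoters these letters occurred in 3.56% for CCACACCC, 1.74% for ATGCAAAT, 3.73% for CTTTGAT and 8.30% for TTCNNNGAA. The Klf5 promoter is not printed.

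The fold of a region is the authors' enrichment at its highest summit over the local background. Whether the input libraries entered that background is not stated. Fold and p together gave the number of reads at each summit and the reads of background behind it, and these reads were whole numbers to within 0.05 for 100% of summits in each library. Total read depth is not in the peak lists. The lowest background among the summits of a library, used here as a second scale, was 5.04 reads in the 2iL library, 8.09 reads at 48 h and 5.84 reads at 96 h. It was the background, to within 0.5%, of 9.89%, 13.3% and 18.5% of summits. The strongest summits of the Klf regions held 33 to 325 reads in 2iL, 29 to 370 reads at 48 h and 12 to 224 reads at 96 h. The 95% intervals given for folds and reads are exact Poisson intervals on these reads with the background held fixed. They cover counting error only, and reads can include copies made by PCR.

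Merged over the libraries, the 38 regions made 23 separate sites, of which 5 were called in all 3 libraries, 3 in 2iL and at 48 h, 1 at 48 h and 96 h, 9 in 2iL alone, 3 at 48 h alone and 2 at 96 h alone. A Klf gene was the nearest protein-coding gene for 11 of the 23 sites. Klf4 had fewer regions at both later times than in 2iL, Klf5 had fewer at 96 h, and Klf2 had as many at 96 h as in 2iL, though partly at other places. These counts depended on weak regions and on the lengths of the lists. With summits at a q-value up to 1e-05 alone, Klf2 had 5 regions in 2iL and 4 at each later time. Klf5 then had 6, 5 and 2 in order of time. With each list shortened by fold to 7018 regions, Klf2 had 1 region in 2iL, 2 at 48 h and 5 at 96 h, Klf4 had 3, 2 and 2, and Klf5 had 4, 3 and 2, which made 8, 7 and 9 in all. At Klf5 the equal counts of 2iL and 48 h in the full lists covered 3 shared sites, with 3 others in each library. In 2iL there were 5 regions near Klf2, with 4 at 48 h and 5 at 96 h. Near Klf4 the counts were 6 in 2iL and 2 at each later time, and the 2 regions at 96 h belong to 1 site. Near Klf5 they were 6 in 2iL and at 48 h, and 2 at 96 h. The median protein-coding gene had 1 region within 100 kb in each library, and 69.8% of 21887 such genes had any region in the 2iL library, 64.7% in the 48 h library and 54.0% in the 96 h library. At least as many regions as Klf4 and Klf5 had in 2iL were found near 8.13% of genes, and as many as Klf2 had near 13.7%. At 48 h the shares were 41.5% for Klf4, 4.32% for Klf5 and 14.7% for Klf2, and at 96 h they were 28.5% for both Klf4 and Klf5 and 3.06% for Klf2.

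**Figure D1:**
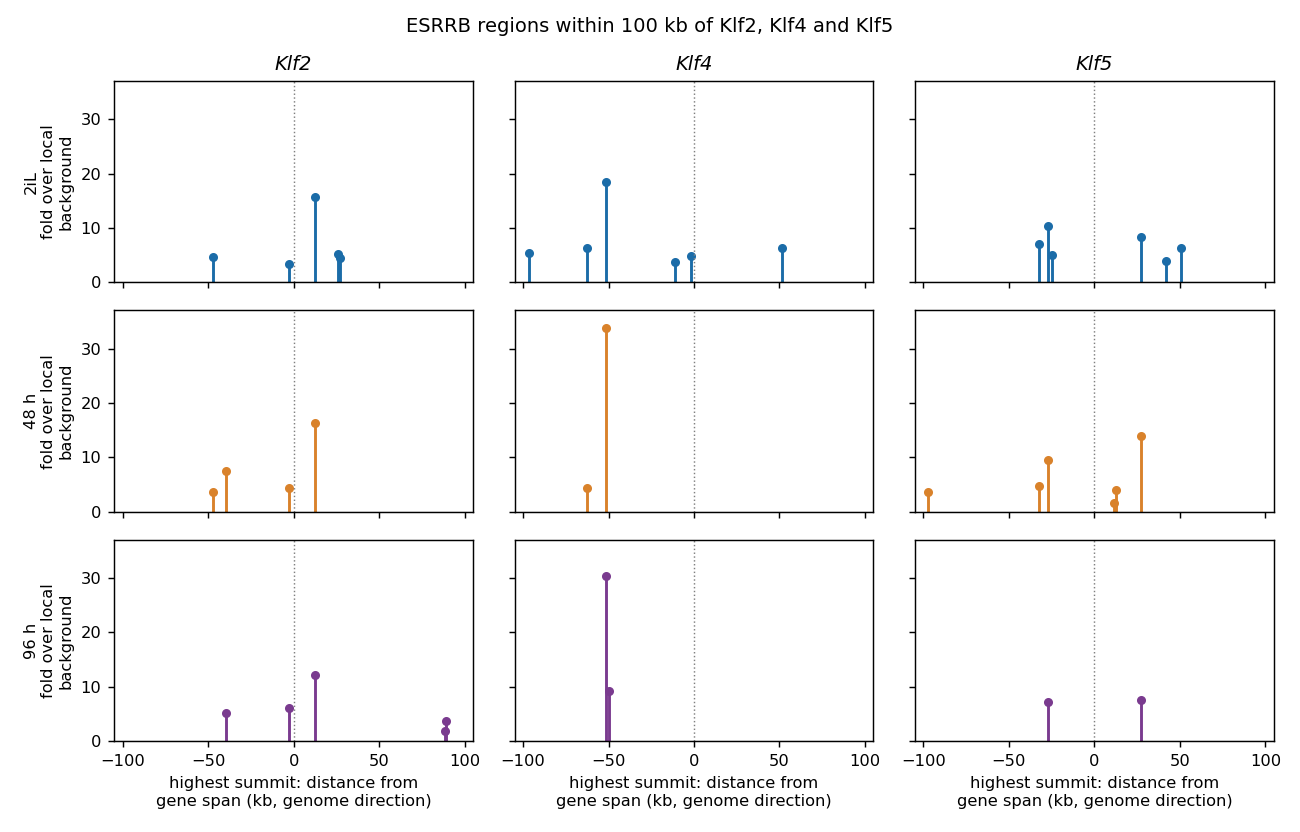
Fold enrichment over local background (vertical axis) of every ESRRB region by the distance in kb of its highest summit from the gene span, with higher genome coordinates to the right (horizontal axis), for 2iL, 48 h and 96 h from top to bottom. The Klf4 region 51.5 kb away reaches 18.5 in the top panel, 33.8 in the middle one and 30.3 in the lowest, and the sites on the other side of Klf4 and next to it appear in 2iL alone.

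Klf4 encodes a factor that is also used to reprogram somatic cells. One region 51.5 kb downstream of the gene (chromosome 4, 55474891 to 55478382 over the libraries) stood above all others near the 3 genes. It lay in no annotated gene, and Klf4 was the nearest protein-coding gene. Its strongest summit fell within 2 bp in the 3 libraries, at position 55475591 in 2iL. The fold there was 18.5 in 2iL (95% interval 16.5 to 20.6), 33.8 at 48 h (30.5 to 37.5) and 30.3 at 96 h (26.5 to 34.6). By fold it ranked 163 of 13767 regions in 2iL, 4 of 10970 at 48 h and 10 of 7018 at 96 h. Its highest fold was matched or exceeded near 397 of 21887 protein-coding genes in 2iL, near 6 at 48 h and near 17 at 96 h, with Klf4 itself counted.

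The reads at that summit gave another order. They numbered 325 in 2iL (291 to 362), 370 at 48 h (333 to 410) and 224 at 96 h (196 to 255). The local background was 16.6 reads in the 2iL library, 9.96 at 48 h and 6.42 at 96 h, so the fold was taken over a higher local background in 2iL. Divided by the lowest background of each library, the reads came to 64.4 in 2iL (57.6 to 71.8), 45.7 at 48 h (41.2 to 50.6) and 38.3 at 96 h (33.5 to 43.7). By reads the region ranked 12 in 2iL, 22 at 48 h and 59 at 96 h in its list, and ranks from lists of different length are descriptions only. The site was thus higher at both later times on the fold scale and lower at both on the scale of the lowest background, and on each scale the 2iL interval did not overlap either later one. The part of the local background in the difference was not tested.

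A second summit in the same region lay 1919 bp nearer to Klf4 in 2iL, 1929 bp at 48 h and 1917 bp at 96 h. Its fold was 15.0 in 2iL (12.9 to 17.2), 14.3 at 48 h (12.2 to 16.7) and 9.23 at 96 h (7.35 to 11.4). At 96 h it was called as a region of its own (chromosome 4, 55477223 to 55477930), while in 2iL and at 48 h both summits lay in 1 interval. Weaker summits between or beside them had folds of 1.501 to 4.697 in 2iL and 5.297 at 48 h.

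The other Klf4 sites were weaker, and none was called at 96 h. A region 62.8 kb downstream (chromosome 4, 55463144 to 55465297) was 6.41-fold enriched in 2iL (4.94 to 8.19) and 4.38-fold at 48 h (3.48 to 5.45), and was not called at 96 h. Its reads over the lowest background were 12.3 in 2iL (9.42 to 15.8) and 9.76 at 48 h (7.73 to 12.2). It lay 9593 bp from the strong region. Of the remaining 4 sites, all in 2iL alone, 1 had its highest summit 51.4 kb upstream of the gene inside the long non-coding RNA genes Gm12506 and Gm12511 (fold 6.33) and 1 lay 96.5 kb downstream (fold 5.45), 11835 bp from Gm12505, with the DNA repair gene Rad23b as the nearest protein-coding gene. Another lay 1.95 kb beyond the end of Klf4 (fold 4.85), the shortest distance of any strongest summit to its Klf gene, and the fourth 11.3 kb downstream (fold 3.74). Their summits held 33 to 42 reads in 2iL. Absence from a list means only that the signal stayed under the threshold of the caller.

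Klf2 encodes a factor whose protein is known to be stabilised in embryonic stem cells when MEK is inhibited. Its strongest region lay 12.7 kb downstream of the gene in 2iL (chromosome 8, 72333273 to 72334964 over the libraries), between Klf2 and Eps15l1, a gene for an endocytic adaptor, and 6571 bp from Eps15l1 at the summit of highest fold. The fold was 15.6 in 2iL (13.9 to 17.5), 16.4 at 48 h (14.3 to 18.6) and 12.3 at 96 h (10.2 to 14.6), and all 3 intervals overlapped one another. Reads at the summit numbered 295, 234 and 125 in that order of time. Over the lowest background of the library they came to 58.5 in 2iL (52.0 to 65.5), 28.9 at 48 h (25.3 to 32.9) and 21.4 at 96 h (17.8 to 25.5). On this scale the 2iL interval lay above both later ones, and by reads it ranked 24 in that library, 297 at 48 h and 366 at 96 h.

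A region 2.87 kb upstream of Klf2 (chromosome 8, 72315879 to 72317011) had a low fold in 2iL. Its fold was 3.47 in 2iL (2.65 to 4.46), 4.34 at 48 h (3.63 to 5.15) and 6.13 at 96 h (4.72 to 7.83), and the 96 h interval lay above that of 2iL. In 2iL it stood at the 4.98 percentile of the list by fold. Reads over the lowest background were 11.5 in 2iL (8.73 to 14.9), 15.9 at 48 h (13.3 to 18.9) and 10.6 at 96 h (8.13 to 13.6), with overlapping intervals for 2iL and each later time. Its nearest edge lay 1801 bp from the printed promoter stretch in 2iL, 2281 bp at 48 h and 2314 bp at 96 h.

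At 39.6 kb upstream of Klf2 a site was called at both later times and not in 2iL (chromosome 8, 72279019 to 72280119). It was 7.50-fold enriched at 48 h (6.34 to 8.81; 146 reads) and 5.11-fold at 96 h (3.59 to 7.09; 34 reads). Reads over the lowest background were 18.0 at 48 h (15.2 to 21.2) and 5.82 at 96 h (4.03 to 8.13). The intervals overlapped for fold and not on that scale. The summit lay 251 bp outside the span of Gm51537, a long non-coding RNA gene, and 22048 bp from Ap1m1, which encodes a clathrin adaptor subunit. This was the site of highest fold among those not called in 2iL. A region 47.2 kb upstream (chromosome 8, 72271025 to 72272302) was 4.71-fold enriched in 2iL (3.61 to 6.06) and 3.69-fold at 48 h (2.73 to 4.88) and was not called at 96 h. Its reads over the lowest background were 11.7 in 2iL (8.90 to 15.1) and 5.81 at 48 h (4.27 to 7.72).

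The sites of Klf2 called in 1 library lay inside Eps15l1. Those of 2iL were 25.7 kb and 27.4 kb downstream of Klf2, with folds of 5.23 and 4.44. Those of 96 h were 88.8 kb and 89.3 kb downstream, with 88 bp between them, with folds of 1.867 and 3.796. The weaker of these had 12 reads and a deposited q of 0.729 at its summit.

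Klf5 encodes a factor of embryonic stem cells and of epithelia. It had 2 strong sites, 1 on each side of the gene. For the site at lower coordinates the nearest protein-coding gene was Pibf1, a gene for a centrosomal protein, 16653 bp away. For the other it was Klf5. The site 27.1 kb away at lower coordinates (chromosome 14, 99270364 to 99272518) was 10.4-fold enriched in 2iL (8.15 to 13.2), 9.52-fold at 48 h (7.64 to 11.7) and 7.31-fold at 96 h (5.44 to 9.61). These intervals overlapped one another, and its reads over the lowest background of 13.5, 10.6 and 8.38 likewise had overlapping neighbours in time. The site 26.97 kb away at higher coordinates (chromosome 14, 99339289 to 99341023) was 8.30-fold enriched in 2iL (6.94 to 9.84), 13.9-fold at 48 h (12.04 to 15.90) and 7.55-fold at 96 h (5.93 to 9.48). The 48 h interval lay above both others. Reads over the lowest background were 25.8 in 2iL (21.5 to 30.6), 25.2 at 48 h (21.9 to 28.9) and 12.3 at 96 h (9.64 to 15.5), so on that scale 2iL and 48 h overlapped and 96 h was lower.

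Of the 2iL regions, 3 formed a cluster on the lower side of Klf5, at 32.3, 27.1 and 24.9 kb, with gaps of 3196 and 969 bp. Pibf1 was the nearest protein-coding gene to each of the 3. The first (chromosome 14, 99265496 to 99267167) was 7.07-fold enriched in 2iL (5.34 to 9.19) and 4.68-fold at 48 h (3.43 to 6.25) and was not called at 96 h. Its reads over the lowest background were 10.7 in 2iL (8.04 to 14.0) and 5.44 at 48 h (3.95 to 7.30). The last had a fold of 5.07 and was called in 2iL alone. On the higher side, sites 42.0 kb and 50.8 kb away were also called in 2iL alone, with folds of 3.99 and 6.29. The 3 sites called at 48 h alone lay 97.4 kb away inside Pibf1, and 11.3 kb and 12.3 kb away at higher coordinates. They had folds of 3.66, 1.59 and 3.94, and the weakest had a deposited q of 0.459. It lay 57 bp from the site at 12.3 kb.

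**Figure D2:**
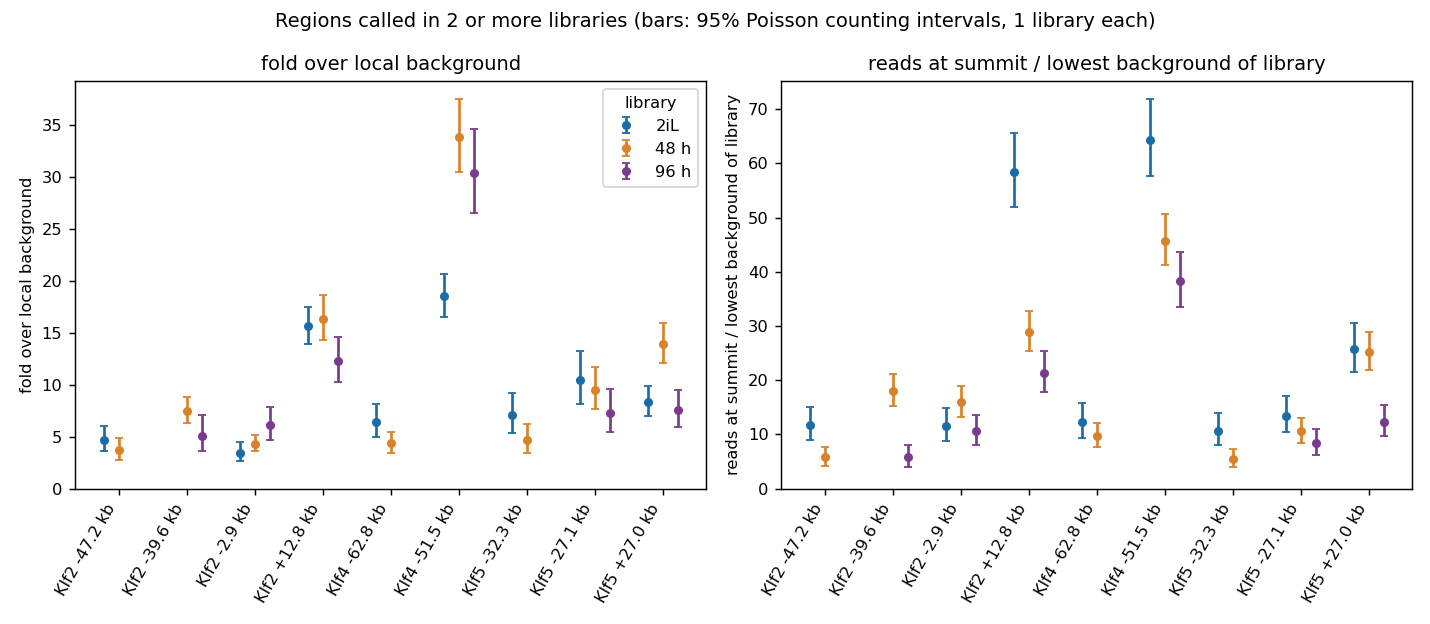
The 9 sites called in 2 or more libraries, as fold over local background (left) and as reads at the summit divided by the lowest background of the library (right), with 95% Poisson counting intervals, 1 library per condition. On the left the Klf4 site at 51.5 kb is lowest in 2iL with 18.5, and on the right it is highest in 2iL with 64.4.

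Folds at shared sites were set beside those of every region that the libraries shared. Over the 6981 regions of 2iL also called at 48 h, the median log2 ratio of folds, 48 h over 2iL, was -0.25, and over the 4822 also called at 96 h it was -0.38. At the Klf4 site 51.5 kb away the log2 ratio was 0.87 at 48 h and 0.71 at 96 h. A ratio at least that high was found in 3.31% of shared regions at 48 h and 4.25% at 96 h. On the scale of the lowest background the same site lay below the median of shared regions, by a log2 difference of -0.22 at 48 h and -0.21 at 96 h. At the Klf5 site at higher coordinates the ratio at 48 h was 0.74 (5.23% of shared regions as high), and at the Klf2 site 2.87 kb upstream the ratio at 96 h was 0.82 (2.94% as high). These 4 ratios were picked as the highest. For the remaining ratios of shared Klf regions, values as high were found in 16.7% to 72.6% of shared regions at 48 h and 34.4% to 59.0% at 96 h. Of the shared Klf regions, 4 of 8 had a higher fold at 48 h than in 2iL, and 2 of 5 had a higher one at 96 h. On the scale of the lowest background, 1 of 8 was higher at 48 h and 0 of 5 at 96 h, and the medians over all shared regions were -0.27 and -0.54. The share of all shared regions that were higher is not given. Set against the medians over all shared regions, 5 of 8 ratios of fold lay above at 48 h and 4 of 5 at 96 h. On the scale of the lowest background, 2 of 8 and 1 of 5 did. The 48 h and 96 h ratios share the 2iL library.

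Comparing summits inside a library needs no scaling for depth. Near each of the 3 genes exactly 2 summits were found in all libraries, when summits within 150 bp were taken as the same, and 44 such summit positions were counted in all. The share of reads within each pair was chosen for description after these values had been seen. At Klf2 the upstream summit took 16.4% of the 353 reads of the pair in 2iL (exact Clopper-Pearson 95% interval 12.7 to 20.7), 35.5% of 363 at 48 h (30.6 to 40.7) and 33.2% of 187 at 96 h (26.5 to 40.4). Both later intervals lay above that of 2iL. With the local background subtracted the shares were 13.2%, 31.2% and 31.3%.

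At Klf4 the summit nearer to the gene took 36.8% of 514 reads in 2iL (32.6 to 41.1), 29.5% of 525 at 48 h (25.7 to 33.6) and 26.6% of 305 at 96 h (21.7 to 31.9). The 96 h interval lay below that of 2iL, and the 48 h interval overlapped both. With the background subtracted the shares were 36.5%, 28.7% and 25.2%. At Klf5 the summit at lower coordinates took 34.3% of 198 reads in 2iL (27.8 to 41.4), 29.7% of 290 at 48 h (24.5 to 35.3) and 40.5% of 121 at 96 h (31.7 to 49.8), and these intervals overlapped. The same summit position was found to within 64 bp in the 3 libraries for each of the 6 summits. The median distance between strongest summits was 21 bp for Klf regions shared by 2iL and 48 h and 18 bp for those shared by 2iL and 96 h, against 27 and 30 bp over all shared regions.

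**Figure D3:**
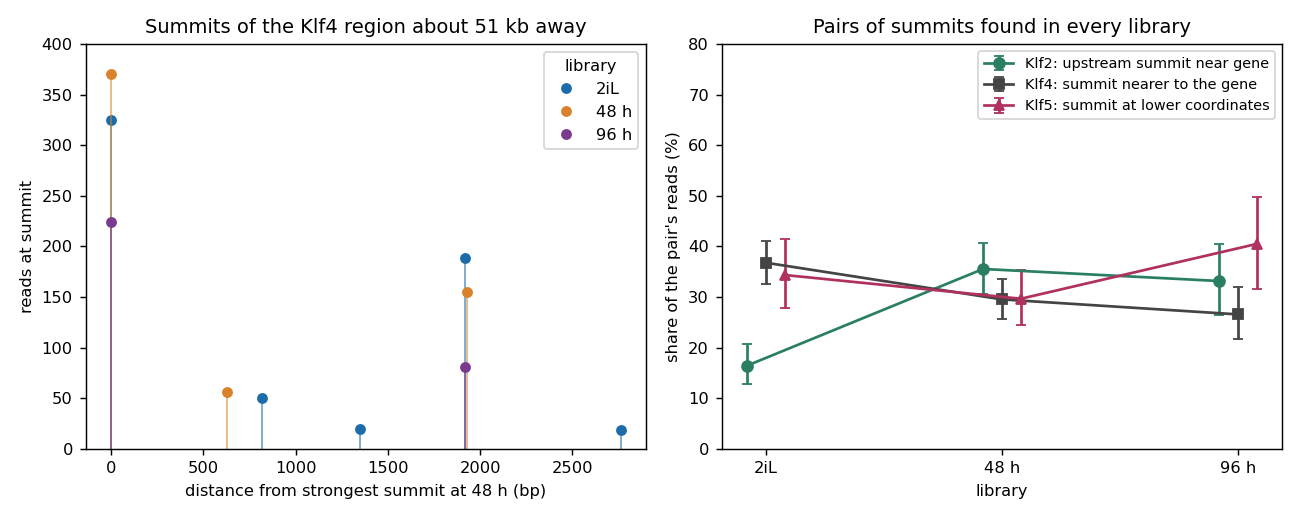
Left, reads at each summit (vertical axis) of the Klf4 region by its distance in bp from the strongest summit at 48 h (horizontal axis). Right, share in percent of the reads of each pair of summits found in every library, with exact 95% intervals, 1 library per point. The Klf2 upstream summit has 16.4% in 2iL, 35.5% at 48 h and 33.2% at 96 h.

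Of the 17 Klf regions of 2iL, 8 were called at 48 h (47.1%, exact Clopper-Pearson 95% interval 23.0 to 72.2), against 50.7% of all 2iL regions and 51.1% of those within 100 kb of any protein-coding gene. At 96 h 5 were called (29.4%, 10.3 to 56.0), against 35.0% of all and 35.3% near any gene. Both shares lay close to those of the whole list. Called at both later times were 5, against 31.3% of all 2iL regions, and at neither 9, against 45.6%. Of the 12 regions at 48 h, 4 were not called in 2iL (33.3%, 9.92 to 65.1), against 36.5% of the whole list, so 8 were also called in 2iL, against 63.5%. Of these 12, 6 were called at 96 h (50%, 21.1 to 78.9), against 49.3% of the list. Of the 9 regions at 96 h, 3 were not called in 2iL (33.3%, 7.49 to 70.1), against 30.5%, so 6 were also called in 2iL, against 69.5% of the list, and 7 were called at 48 h (77.8%, 40.0 to 97.2), against 78.3%. The intervals are wide and take the regions as independent, so they cannot show whether the Klf regions differ from the list. At 96 h, 2 of the 9 regions belong to 1 Klf4 site and were counted separately.

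The Klf regions called at both later times had a median fold of 10.4 in 2iL, with a range of 3.47 to 18.5, and those called at neither 5.07, with a range of 3.74 to 6.33 and 33 to 57 reads. The weakest of the 5 kept regions by fold, 2.87 kb upstream of Klf2, thus had a lower fold in 2iL than any of the 9 called at neither. By reads the order was another. The 5 kept regions held 58 to 325 reads in 2iL, all above the 33 to 57 of those 9. The 58 reads were those of the Klf2 region, over a local background of 16.0 reads. The 3 Klf regions in the top 20% of the 2iL list by fold were all called at both later times, where 77.5% of all regions in that class were called at 48 h and 62.1% at 96 h. With the list cut into 5 classes of near equal size by fold, 3 of the 12 Klf regions in the 3 weakest classes were called at 48 h and 1 of 12 at 96 h. Over all regions the shares in those classes, weakest first, were 30.4%, 37.3% and 48.7% at 48 h and 17.6%, 23.4% and 30.6% at 96 h. Weighted by the classes in which the 17 regions lay, the share over the whole 2iL list was 48.5% at 48 h and 33.0% at 96 h. The median rank of Klf regions by fold was at the 41.7 percentile of the list in 2iL, the 40.2 at 48 h and the 79.9 at 96 h. The lists differ in length, so these ranks cannot show whether there was a change. The weakest 5% of regions had folds below 3.47 in 2iL, 2.91 at 48 h and 2.81 at 96 h.

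Among the other 14 genes of the KLF family, regions within 100 kb were found for 12 of the 14 in both the 2iL and the 48 h library and for 11 in that of 96 h, with a median of 2.5, 2 and 2 regions a gene. These are 85.7%, 85.7% and 78.6% of the list, beside 69.8%, 64.7% and 54.0% of all protein-coding genes. Each of the 14 had a region in at least 1 library. Klf9, a gene induced by steroid and thyroid hormones, had 10 regions in 2iL and 11 at each later time, with highest folds of 16.4, 16.2 and 23.4. Klf15, a regulator of metabolism, had 7, 3 and 4 regions, and Klf3 4, 2 and 2. Klf16 had 3, 3 and 2, Klf6 2, 2 and 2, and Klf11 1, 2 and 1. Klf12, a long gene whose span widens its window, had 2, 6 and 3. Klf14 had 1 region, in 2iL. Klf17, a gene of the early embryo, had none in 2iL, 2 at 48 h (highest fold 8.25) and 1 at 96 h, and Klf10 had 2 at 48 h alone.

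At 48 h, 5 of these 14 genes had fewer regions than in 2iL, 3 as many and 6 more, and over all protein-coding genes 39.0% had fewer and 18.1% more. At 96 h, 7 had fewer, 4 as many and 3 more, and over all protein-coding genes 52.0% had fewer and 8.23% more. Among 14 partner genes of the naive network, a region was near 13 in 2iL and at 48 h and near 11 at 96 h, with medians of 6.5, 4 and 3.5 regions. At 96 h 12 of them had fewer regions than in 2iL and none had more. The median over all protein-coding genes was 1 region in 2iL, and a gene with none cannot have fewer later. The share of all genes with fewer is thus no like background for these partners. The other KLF genes had a median of 2.5 regions in 2iL. The shares of all genes with fewer or more are no like background for them either. Partner genes that lie close together can also share regions. Examples by highest fold in 2iL were Prdm14 with 7, 4 and 3 regions and highest folds of 21.8, 7.36 and 6.52, and Esrrb with 13, 4 and 4 regions and 17.9, 17.8 and 19.9. Socs3, a feedback inhibitor of LIF signalling, had 10, 5 and 6 regions, and Tbx3 had 8, 5 and 5. Tcl1 had none.

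**Figure D4:**
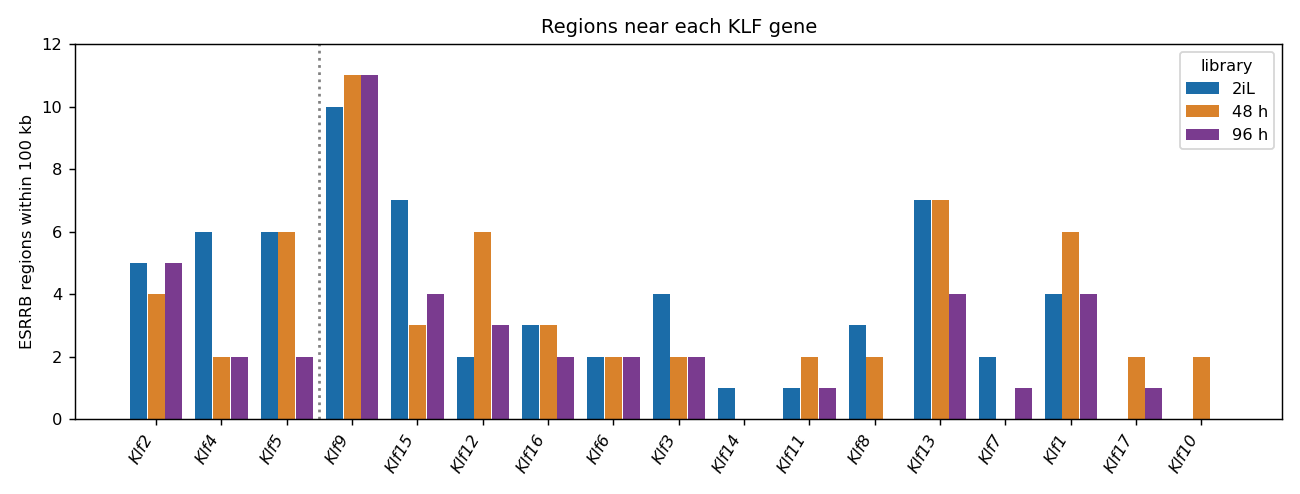
Number of ESRRB regions within 100 kb (vertical axis) of Klf2, Klf4 and Klf5, left of the dotted line, and of the other 14 KLF genes, ordered by their highest fold in 2iL, in the 2iL, 48 h and 96 h libraries. Klf9 has 10, 11 and 11 regions, and Klf4 has 6, 2 and 2.

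Genes whose pattern was most like each Klf gene were found by the distance over 6 values in the 3 libraries, the log2 of 1 plus the number of regions and the log2 of the highest fold. For Klf4 they were Mbip (distance 0.79), Camk1d (0.91) and Ahsa1 (0.97). Mbip had 4, 3 and 3 regions with highest folds of 18.9, 31.5 and 33.9. For Klf2 they were Hormad1 (0.34), S1pr2 (0.36) and Ensa (0.40), of which Hormad1 and Ensa had the same highest folds of 15.9, 14.8 and 14.2. For Klf5 they were Camsap3, Pcp2 and Pet100, which lie side by side on chromosome 8, all at a distance of 0.33, with the same counts of 6, 6 and 2 and highest folds of 11.73, 11.96 and 8.56.

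The 100 kb line fell in gaps between regions. The farthest Klf region inside it lay 97.4 kb from Klf5 at 48 h with a fold of 3.66, and the nearest regions outside lay 113 kb from Klf2, with folds of 3.40 in 2iL and 4.08 at 48 h, and 119 kb from Klf4, with a fold of 4.53 at 48 h.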

How the data were processed

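Per the submitters' processing notes, bcl2fastq 2.20.0.422, BWA, SAMtools, Picard and MACS2 were used with the mm10 build. Settings and any role of the 3 input libraries, which were not analysed here, were not stated. The deposited lists give, for each summit, a fold enrichment as a ratio over the local background, a p-value and a q-value as −log10, and a score capped at 1000, which was not used for results. Reads k and background b were solved from fold = (k + 1)/(b + 1) and the Poisson p, tested on simulated data. Regions sharing at least 1 bp were taken as the same. Genes came from RefSeq (GRCm38.p6), which gave no strand for Klf5. Python 3.11.15, pandas 2.3.3, NumPy 2.4.6, SciPy 1.17.1 and matplotlib 3.10.9 were used. No test between conditions and no p-value was computed. Sites named were those called in more than 1 library, those in the top 20% by fold, the strongest of each gene and library and, per gene, the 3 strongest called in 1 library. The other 5 sites were named after their values were seen, as were Klf10, Klf17 and Tcl1. Other KLF genes were named up to 8 by highest 2iL fold, and partner genes up to 4. Members and lists were chosen with earlier results of these data known. Also tried were summits at a q-value up to 1e-05 alone, equal list lengths (7018 regions), overlap of 50% of both regions, a 50 kb window, the nearest protein-coding gene as the only assignment, and the fold of the summit of best p.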

Additional observations from a re-analysis of the deposited data

How the results depend on the processing

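The counts of Klf regions followed the list length and the rule of assignment. With lists of equal length, 8 were found in 2iL, 7 at 48 h and 9 at 96 h, so the order of the full lists (17, 12 and 9) did not hold. The median rank at 48 h was at the 83.2 percentile, and 75% of the 8 regions of 2iL were called at 48 h. With regions counted for their nearest protein-coding gene only, they were 9, 6 and 4, and 0% of the 96 h regions were not called in 2iL. Of the values for all 3 genes together, the other 39 recomputed under these settings, a stricter q, 50% overlap, a 50 kb window or the summit of best p stayed within 1.5 times (counts), the 95% interval (shares) or 1 SD (ranks). Those intervals were wide: with 50% overlap 17.6% of the 2iL regions were called at 96 h, against 29.4%, and 66.7% of the 96 h regions were not called in 2iL, against 33.3%. Shares over all regions are given for the main setting only. The 75%, 0%, 17.6% and 66.7% therefore have no like background and cannot be set against those shares. Counts for single genes moved by over 1.5 times in 14 cases. With reads over the lowest background of the library, a scale added after seeing the data, the log2 ratio of 48 h over 2iL turned negative at the Klf2 site 12.8 kb away (-1.02), the Klf4 site 51.5 kb away (-0.49) and the Klf5 site 26.97 kb away (-0.032). That of 96 h over 2iL turned negative at the Klf2 site 2.87 kb away (-0.12) and the Klf4 site 51.5 kb away (-0.75). The cause was not tested. No paired analysis was possible because each condition had 1 library. No library could be left out for the same reason. The weakest Klf region at 96 h rested on 12 reads.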
